A study of Homo sapiens with 6 samples.

Results

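The genes described here are 10 epithelial chemokines, the secreted proteins that direct the migration of leukocytes. Selected by name, they were 10 of the 58825 gene identifiers in the deposited table: CXCL1, CXCL2, CXCL3, CXCL5, CXCL6 and CXCL8, which recruit neutrophils, CXCL10 and CXCL11, which are induced by interferon, and CXCL16 and CCL20. They were followed in bulk RNA sequencing of FaDu, an established line of hypopharyngeal squamous carcinoma. The FaDu group (3 libraries) carried no hairpin, and the shNSUN2 group (3 libraries) carried a short hairpin RNA against NSUN2, an enzyme that methylates cytosines in RNA. Libraries with a control hairpin were not analysed here, and effects of NSUN2 loss and of the hairpin or its delivery cannot be told apart. The sources used here do not say whether the shNSUN2 cells were a clone or a pool. They also do not say whether replicates came from separate cultures, and if they did not, the spread that the p-values measure is technical. Values are CPM, the counts of a gene scaled to its library's total after TMM scaling, and a gene was called when its edgeR quasi-likelihood test, adjusted by Benjamini-Hochberg over all genes tested, gave p under 0.05.

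Chemokines bind G-protein-coupled receptors on leukocytes, and held on glycosaminoglycans of the tissue they form gradients along which these cells move. The neutrophil-recruiting CXC chemokines signal through CXCR1 and CXCR2, whereas CXCL10 and CXCL11 signal through CXCR3 on activated T and NK cells. CXCL16 is made as a transmembrane protein that ADAM10 can shed, with CXCR6 as its receptor, and CCL20 attracts CCR6-bearing dendritic cells and lymphocytes. In squamous epithelium, transcription of many of these genes is switched on by NF-kB downstream of IL-1, TNF, IL-17 and Toll-like receptors, and their mRNAs are kept short-lived by proteins that bind AU-rich elements.

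The neutrophil-recruiting members share a short motif of the protein, which can be read from the coding sequence. The stretches printed here, 36 bases each from GENCODE 29 transcripts, show its place in the members the results turn on. Capitals mark the 3 codons before the Cys-X-Cys motif that gives the CXC chemokines their name, past the signal peptide.
CXCL1: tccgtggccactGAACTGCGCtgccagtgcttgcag
CXCL2: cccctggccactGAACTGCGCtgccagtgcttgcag
CXCL3: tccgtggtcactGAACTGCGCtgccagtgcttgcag
CXCL8: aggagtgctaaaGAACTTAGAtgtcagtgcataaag
CXCL10: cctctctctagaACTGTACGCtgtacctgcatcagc
CXCL16: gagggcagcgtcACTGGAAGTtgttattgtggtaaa
In 6 of the 9 CXC members, namely CXCL1, CXCL2, CXCL3, CXCL5, CXCL6 and CXCL8, the capitals encoded glutamate, leucine and arginine, the motif that CXCR2 recognises. CXCL10, CXCL11 and CXCL16 held other codons. CXCL1, CXCL2 and CXCL3 are close copies, with identities between coding sequences of 93.5% (CXCL1 and CXCL2), 90.7% (CXCL1 and CXCL3) and 94.4% (CXCL2 and CXCL3). Of the 50-base words of the CXCL1 transcript, 5.73% also occurred in CXCL2, and of those of CXCL2, 4.62% occurred in CXCL3, so counts of these 3 genes are uncertain to the extent that reads were split between them.

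RefSeq (GRCh38.p14) gave a promoter for 9 of the 10 members, all but CXCL16. The 250 bases before each start were searched on both strands for GGAATTTCC, a sequence of the NF-kB type, and the interferon-response type of motif, a GAAA pair spaced by NN. The first was found in 8 of the 9 windows, all but that of CCL20, against 145 of 35116 windows of the same length over all promoters (0.413%). The matches are printed with their surroundings, 30 bases on the strand of the gene, with the match or its reverse complement in capitals, because members that were called higher, were not called or were near 0 all carry it.
CXCL1: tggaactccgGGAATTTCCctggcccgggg
CXCL2: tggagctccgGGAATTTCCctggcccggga
CXCL3: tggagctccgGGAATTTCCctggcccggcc
CXCL5: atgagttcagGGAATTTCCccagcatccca
CXCL6: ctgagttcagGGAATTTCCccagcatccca
CXCL8: tgcaaatcgtGGAATTTCCtctgacataat
CXCL10: aggagcagagGGAAATTCCgtaacttggag
CXCL11: actcaaagagGGAAATTCCtgtgccataaa
These stretches lie at chr4:73869305-73869334 (plus strand, CXCL1), chr4:74099253-74099282 (minus strand, CXCL2), chr4:74038748-74038777 (minus strand, CXCL3), chr4:73998748-73998777 (minus strand, CXCL5), chr4:73836579-73836608 (plus strand, CXCL6), chr4:73740468-73740497 (plus strand, CXCL8), chr4:76023654-76023683 (minus strand, CXCL10) and chr4:76036126-76036155 (minus strand, CXCL11). The match ended 69 bases before the start in CXCL2, 70 in CXCL1 and CXCL3, 81 in CXCL6, 82 in CXCL5, 83 in CXCL8, 67 in CXCL11 and 168 in CXCL10. Starts here are those of RefSeq. The GENCODE 29 gene spans printed below begin further upstream in CXCL2, CXCL3, CXCL5, CXCL6 and CXCL11, and there they include the stretch. They also begin further upstream in CXCL8, without reaching the stretch, and in CCL20, where the whole window lies inside the span. Position by position, CXCL2 shared 28 of the 30 bases with CXCL1 and 28 with CXCL3, CXCL5 shared 29 with CXCL6, and CXCL8 shared 17 with CXCL1. The interferon-response type of motif occurred in CXCL10 alone of the 9 members, 212 bases before the start, and in 3.02% of all promoters. The CXCL10 window is printed in full because it holds both matches, in capitals.
CXCL10: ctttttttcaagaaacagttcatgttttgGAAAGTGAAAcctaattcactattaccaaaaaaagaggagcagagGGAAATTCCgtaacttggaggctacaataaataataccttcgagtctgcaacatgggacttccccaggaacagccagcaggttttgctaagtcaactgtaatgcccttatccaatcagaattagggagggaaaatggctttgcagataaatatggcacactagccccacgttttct
It spans chr4:76023498-76023747 on the minus strand. TGANTCA, of the AP-1 type, was found in CXCL8 and CXCL11 and in 6.57% of all promoters. A match describes letters in the window and is not evidence of a bound factor. Only the patterns as written were searched. A window without a match, such as that of CCL20 for GGAATTTCC, may still hold a variant of the motif.

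NSUN2 was measured at 169, 173 and 156 CPM in the FaDu libraries and at 50.4, 34.7 and 39.6 CPM in the shNSUN2 libraries. The mean fell to 25.1% of that in FaDu, a log2 fold change of -2.0 with an SE of 0.16 (edgeR adjusted p = 0.000526). All 10 squamous epithelial markers were present in both groups, and in shNSUN2 7 of them were lower and 1, EPCAM, was higher. Library totals were 53612358 to 72788971 counts. Of 19081 genes tested, 1629 were higher in shNSUN2 (8.54%) and 1903 lower (9.97%), in all 18.5%, and with 1 library left out the counts were 478 to 2090 higher and 861 to 2181 lower (fewest without FaDu replicates 2 and 3). Groups did not overlap for 20.3% of tested genes with shNSUN2 higher and for 22.1% with shNSUN2 lower. Library shNSUN2 replicate 3 stood apart in GC content and length: its log ratio to replicate 1 of its group correlated with GC at Spearman's rho 0.43 and with exonic length at -0.253 across 19033 genes, which are not independent replicates.

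Of the 10 members, 6 passed the filter on low counts, with at least 97 counts in each of the 6 libraries, and 4 of the 6 were higher in shNSUN2, against 8.54% of all genes tested (18.5% called in either direction). These were CXCL1, CXCL8, CXCL3 and CXCL16. CXCL2 and CCL20 were not called, no member was called lower, and CXCL5, CXCL6, CXCL10 and CXCL11 had too few counts to be tested. Leaving out FaDu replicate 2, shNSUN2 replicate 1 or shNSUN2 replicate 2 left 2 members called, CXCL1 and CXCL8, and leaving out shNSUN2 replicate 3 gave 5, in which CXCL3 was lost and CCL20 and CXCL10 were added. The median log2 fold change of the 6 tested members was 0.83, and that of all genes tested was -0.0069.

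**Figure D1:**
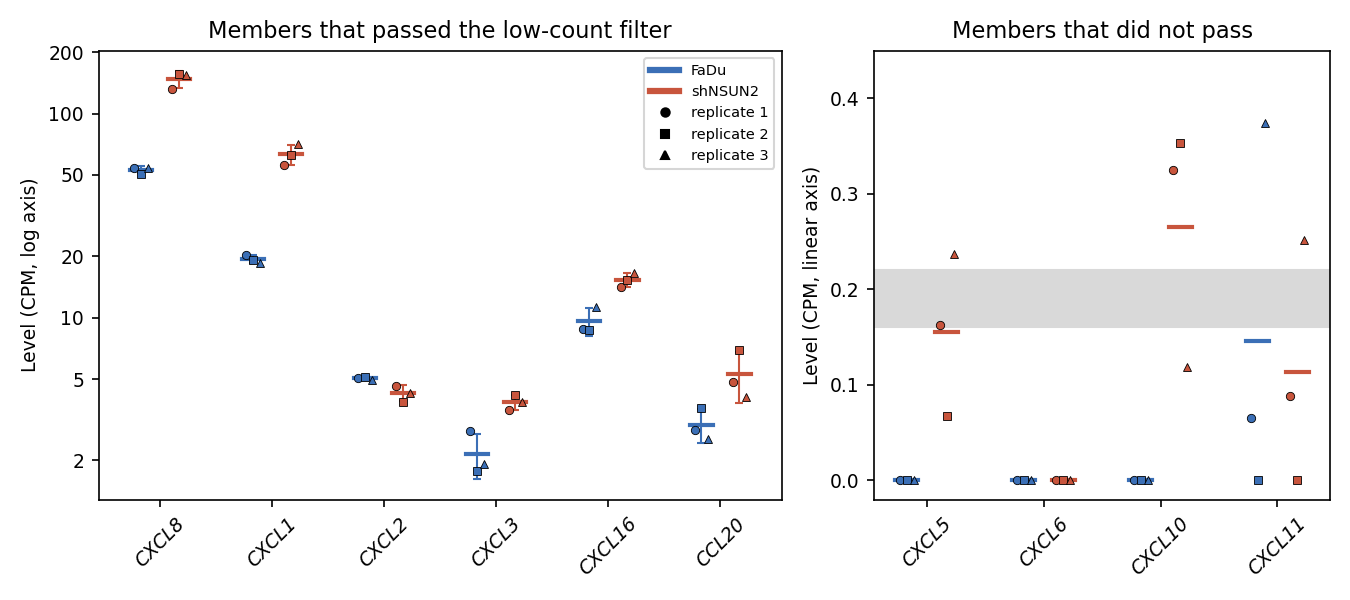
Level of each chemokine in each library in CPM, on a log axis for the 6 members that passed the filter (left) and on a linear axis for the other 4 (right). Points are libraries, with a shape for each replicate number, horizontal bars are means of 3 libraries, and vertical bars on the left are SD. The grey band marks the level of 3 fragments worth 4 counts each, 0.160 to 0.220 CPM. CXCL8 and CXCL1 stand well apart between the groups, CXCL2 lies slightly lower in shNSUN2, and only a few points on the right rise above the band.

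CXCL8 (interleukin-8, ENSG00000169429, chr4:73740506-73743716, plus strand, GRCh38), the best known neutrophil attractant, had the highest level of the members. It was measured at 54, 50.8 and 54.4 CPM in FaDu and at 131, 157 and 154 CPM in shNSUN2. Every shNSUN2 library lay far above every FaDu library, while the FaDu libraries were nearly equal. The means were 53.0 ± 1.99 and 147 ± 13.9 CPM (SD, n = 3 each), a 2.78-fold rise (log2 fold change 1.47 with an SE of 0.12, edgeR adjusted p = 0.000551). In bulk RNA, a change in the number of cells that express a gene and a change in RNA per cell cannot be told apart.

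CXCL1 (ENSG00000163739, chr4:73869393-73871242, plus strand), first known as a melanoma growth factor and also a CXCR2 ligand, was at 20.4, 19.2 and 18.6 CPM in FaDu. In shNSUN2 it was at 56.2, 62.4 and 70.8 CPM, and the groups did not overlap. Its mean went from 19.4 ± 0.882 to 63.1 ± 7.34 CPM (SD, n = 3 each), a 3.26-fold rise (log2 fold change 1.70 with an SE of 0.13, edgeR adjusted p = 0.000515). The 95% interval of the log2 fold change was 1.40 to 2.01 for CXCL1 and 1.19 to 1.75 for CXCL8, so that the intervals overlapped. Still, the ratio of CXCL8 to CXCL1 within a library was 2.65, 2.65 and 2.92 in FaDu and 2.34, 2.51 and 2.17 in shNSUN2, lower in each shNSUN2 library.

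CXCL2 (ENSG00000081041, chr4:74097035-74099293, minus strand), the close copy of CXCL1 that activated macrophages make in quantity, did not show this rise. It was measured at 5.05, 5.14 and 4.94 CPM in FaDu and at 4.66, 3.89 and 4.30 CPM in shNSUN2. Its shNSUN2 values lay slightly below the FaDu values without overlap, yet the gene was not called (log2 fold change -0.24 with an SE of 0.17, 95% interval -0.63 to 0.15, edgeR adjusted p = 0.371). The ratio of CXCL1 to CXCL2 was 3.84 ± 0.163 in FaDu and 14.9 ± 2.43 in shNSUN2 (SD, n = 3 each). For the log ratio, p was 0.1 in an exact permutation test (two-sided), the smallest this design can reach. So it was for the other 3 ratios computed (CXCL8 to CXCL1, CXCL1 to CXCL3, CXCL8 to CXCL16), and Benjamini-Hochberg adjustment over the 4 leaves it at 0.1. The ratios were not among the planned tests. Because CXCL1 was higher and CXCL2 lower in every shNSUN2 library, their ratio could not overlap between groups, and its p was fixed by those levels.

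CXCL3 (ENSG00000163734, chr4:74036589-74038807, minus strand), the third of these close copies, was at 2.78, 1.78 and 1.92 CPM in FaDu and 3.53, 4.19 and 3.87 CPM in shNSUN2. All shNSUN2 libraries were higher, though FaDu replicate 1 came nearest to them. The rise was 1.79-fold (log2 fold change 0.84 with an SE of 0.24, edgeR adjusted p = 0.0447). Its call was lost with any library but FaDu replicate 1 left out, the adjusted p being 0.159 without FaDu replicate 2, 0.155 without FaDu replicate 3 and 0.0793, 0.0945 and 0.0643 without shNSUN2 replicates 1, 2 and 3. It was also lost with no filter (0.0686), upper-quartile scaling (0.0635) or the correction for GC content and length (0.0584).

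CXCL5 (ENSG00000163735, chr4:73995642-73998779, minus strand) and CXCL6 (ENSG00000124875, chr4:73836497-73849064, plus strand), a pair of neutrophil attractants with 87.4% identity between coding sequences, were almost absent. CXCL5 was listed at 0 in all FaDu libraries and at 0.163, 0.0673 and 0.237 CPM in shNSUN2. Only shNSUN2 replicate 3 exceeded the level of 3 fragments in its library, 0.178 CPM, where a fragment is taken as 4 counts (a count of 4 was 3.25 to 3.81 times as frequent as its neighbours). CXCL6 was listed at 0 in all 6 libraries. No fold is given for either gene.

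Summed over the 6 neutrophil-recruiting members, the level was 82.2, 76.8 and 79.9 CPM in FaDu and 196, 227 and 233 CPM in shNSUN2. The share of CXCL8 in this sum was 66.6% ± 1.27 in FaDu and 67.3% ± 1.48 in shNSUN2, and that of CXCL1 24.3% ± 0.879 and 28.8% ± 1.46 (SD, n = 3 each). CXCL2 made up 6.34% ± 0.30 of the sum in FaDu and 1.98% ± 0.353 in shNSUN2. Of this group, 4 of 6 members were tested, 3 were called higher and their median log2 fold change was 1.16.

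The interferon-induced members were near the detection limit. CXCL10 (ENSG00000169245, chr4:76021117-76023497, minus strand), the ligand that draws activated T cells, was listed at 0 in all FaDu libraries. In shNSUN2 it was at 0.325, 0.354 and 0.118 CPM, from 22, 21 and 8 counts. Replicates 1 and 2 were above the level of 3 fragments in their libraries (0.177 and 0.202 CPM), and replicate 3 was below its own (0.178 CPM). The gene did not pass the filter. It was called when all genes with a count were tested (edgeR adjusted p = 0.0244) and when shNSUN2 replicate 3 was left out (0.0324), not when a FaDu library was left out (0.0667 to 0.0760), and a fold fitted against 0 counts depends on the prior count, so none is given.

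CXCL11 (ENSG00000169248, chr4:76033682-76041415, minus strand), which binds the same receptor, was at 0.0654, 0 and 0.374 CPM in FaDu and at 0.0887, 0 and 0.252 CPM in shNSUN2. In both groups replicate 3 alone exceeded the level of 3 fragments, and the groups overlapped. Neither gene can therefore be set against the neutrophil-recruiting members by a test, and a change of CXCL11 was not detectable at this depth. Where CXCL10 was seen, some markers of other cell types were also higher in shNSUN2. Summed endothelial markers were at 4.07 to 5.84 CPM in FaDu and 31.8 to 54.8 CPM in shNSUN2. CDH5 made up nearly all of this difference (1.39 and 39.6 CPM on average), VWF was not called (3.33 and 3.68 CPM, edgeR adjusted p = 0.669), and PECAM1, KDR, CLDN5 and TEK had means of at most 0.151 CPM. Prostate markers summed to 14.8 to 18.0 CPM in FaDu and 36.5 to 56.3 CPM in shNSUN2, and plasma cell markers to 0 to 0.267 CPM and 2.10 to 6.15 CPM. Among the prostate markers KLK2, KLK3, KLK4, MSMB and TMPRSS2 were higher, and among the plasma cell markers IGKC, IGHG1, IGHA1 and IGLC2 were higher. The 17 leukocyte markers summed to 37.1 to 55.6 CPM in FaDu and 41.2 to 49.8 CPM in shNSUN2, most of it CD68 and CD14, with PTPRC, CD3D, MS4A1, CSF3R and S100A12 at 0 in all 6 libraries. The 10 fibroblast and smooth muscle markers summed to 17.9 to 21.4 CPM in FaDu and 10.2 to 25.3 CPM in shNSUN2. This sum covers calls in both directions among the 8 tested. COL1A2 (means of 0 and 0.386 CPM, edgeR adjusted p = 0.0127) and DES (0.0738 and 1.22 CPM, 0.0395) were higher in shNSUN2. DES was at 2.75, 0.455 and 0.459 CPM in the shNSUN2 libraries, mostly from replicate 1. So was MYH11, which was not called (8.29, 1.53 and 1.39 CPM). ACTA2 was lower (8.93 and 2.78 CPM, edgeR adjusted p = 0.0080). The part of these transcripts in the chemokine results was not tested.

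CXCL16 (ENSG00000161921, chr17:4733526-4739922, minus strand), the transmembrane chemokine, was at 8.85, 8.71 and 11.3 CPM in FaDu and 14.2, 15.3 and 16.5 CPM in shNSUN2. The groups did not overlap. Its rise was 1.59-fold (log2 fold change 0.67 with an SE of 0.16, edgeR adjusted p = 0.0265). The call was lost without FaDu replicate 1 (adjusted p = 0.107), FaDu replicate 2 (0.113), shNSUN2 replicate 1 (0.0532) or shNSUN2 replicate 2 (0.0529). The gene overlaps MED11 on the other strand, which was at 7.05 to 7.45 CPM in FaDu and 8.50 to 9.24 CPM in shNSUN2 (log2 fold change 0.29, edgeR adjusted p = 0.196), and the sources used here do not say whether counting used strand.

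CCL20 (ENSG00000115009, chr2:227805739-227817564, plus strand), the ligand of CCR6 and the only CC chemokine of the set, was at 2.81, 3.63 and 2.55 CPM in FaDu and 4.85, 6.99 and 4.09 CPM in shNSUN2. Each shNSUN2 library was above each FaDu library, but with a wide spread. The means were 3.00 ± 0.564 and 5.31 ± 1.5 CPM (SD, n = 3 each), and the test did not call the 1.77-fold difference (log2 fold change 0.82 with an SE of 0.26, 95% interval 0.23 to 1.42, edgeR adjusted p = 0.0616). DESeq2 called it (adjusted p = 0.0245), as did edgeR after the correction for GC content and length (0.0354) or without shNSUN2 replicate 3 (0.0328).

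**Figure D2:**
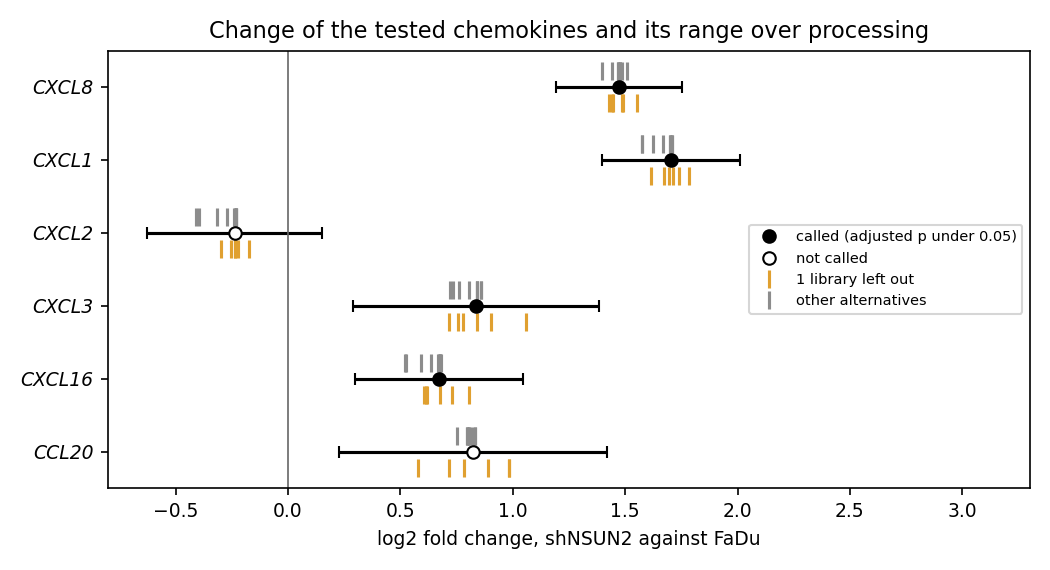
Change of the 6 tested chemokines as log2 fold change of shNSUN2 against FaDu, with 95% intervals as bars. Filled circles are called and open circles are not, and ticks give the same value under the alternatives, grey above the bar for other processing and orange below it for 1 library left out. All ticks lie within the intervals; those of CXCL8 and CXCL1 stay above 1, and those of CXCL3, CXCL16 and CCL20 between 0.52 and 1.06.

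Set against exonic length in GENCODE 29, so that genes can be compared, the order in FaDu was CXCL8 at 23.3 ± 0.873 CPM per kb, CXCL1 at 15 ± 0.681, CXCL16 at 3.45 ± 0.530, CXCL2 at 3.36 ± 0.0649, CCL20 at 1.88 ± 0.354 and CXCL3 at 0.974 ± 0.244 CPM per kb (SD, n = 3 each). CXCL16 and CXCL2 lay within 1 SD of each other. In shNSUN2 the order by CPM per kb was CXCL8 (64.8 ± 6.12), CXCL1 (48.7 ± 5.66), CXCL16 (5.49 ± 0.417), CCL20 (3.33 ± 0.943), CXCL2 (2.85 ± 0.256) and CXCL3 (1.74 ± 0.149). There CCL20 and CXCL2 lay within 1 SD of each other. CXCL2 thus moved from the fourth to the fifth place, behind CCL20, by mean level only.

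All neutrophil-recruiting members lie in a cluster on chromosome 4 that spans 358.788 kb from CXCL8 to CXCL2 and holds 9 coding genes. Of its genes, 4 were tested, the 4 tested neutrophil-recruiting members. The remaining coding genes of the cluster, CXCL6, PF4V1, PF4, PPBP and CXCL5, were at or near 0, PF4 and PPBP being chemokines of platelets. From CXCL8 the distance is 129 kb to CXCL1, 296 kb to CXCL3 and 357 kb to CXCL2. CXCL3, which was called, is the nearest coding gene to CXCL2 within the cluster, and CXCL2 was not called. The coding genes between CXCL8 and CXCL1 were listed at 0. The interferon-induced pair lies in a separate cluster of 40.141 kb with 4 coding genes, none of which was tested.

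**Figure D3:**
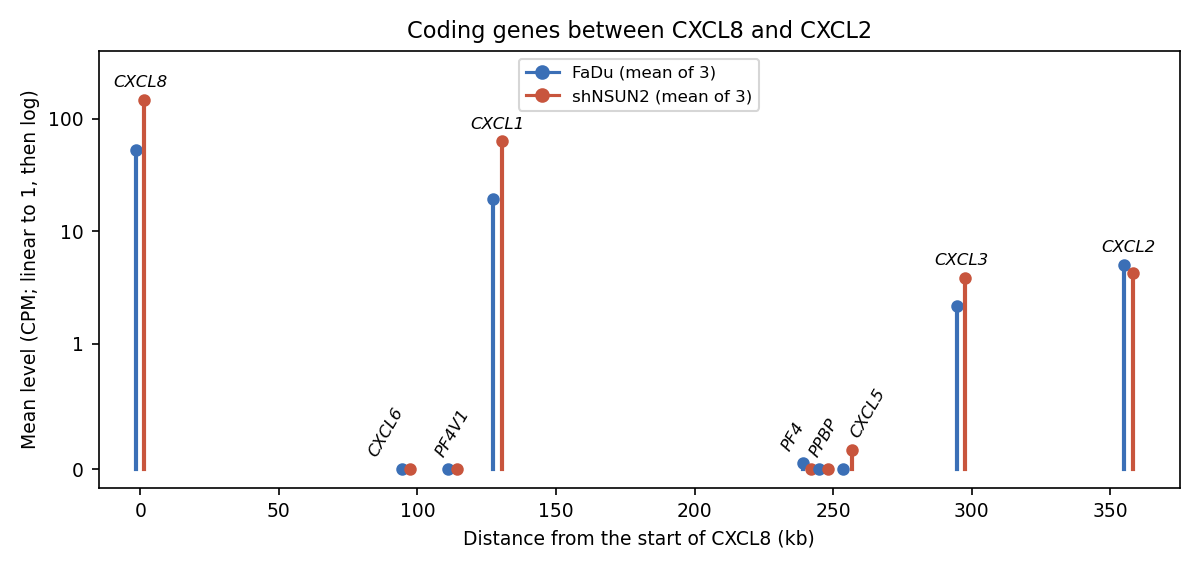
Mean level (CPM, linear to 1 and log above) of the 9 coding genes between CXCL8 and CXCL2 against distance from the start of CXCL8 in kb, with a stem for each group (mean of 3 libraries). CXCL8, CXCL1 and CXCL3 stand higher in shNSUN2, CXCL2 does not, and the genes between them are at or near 0.

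The genes whose pattern over the 6 libraries was most like that of CXCL8, among 11216 tested genes with a mean of at least 5 CPM, were CTSS, ELF3 and IGFL2-AS1. CTSS, the lysosomal protease cathepsin S, was nearest, with a Euclidean distance of 0.193 between centred log2 CPM and a Pearson's r of 0.994. Its mean level was 16.5 CPM in FaDu and 45.3 CPM in shNSUN2. ELF3, an epithelial transcription factor, followed at 0.236 (r = 0.996, from 254 to 632 CPM), and the antisense RNA gene IGFL2-AS1 at 0.241 (r = 0.995, from 12 to 30.4 CPM). The 6 points share the split into 2 groups.

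Among 36 other chemokines, 7 were tested, of which 4 were higher and 1 lower in shNSUN2 (median log2 fold change 1.08), against 8.54% and 9.97% of all genes tested. CCL22, which attracts regulatory T cells and T helper cells through CCR4, was at 1.31, 1.63 and 1.75 CPM in FaDu and 10.3, 11.1 and 14.5 CPM in shNSUN2 (log2 fold change 2.93 with an SE of 0.22, edgeR adjusted p = 0.000461). CXCL17, a mucosal chemokine, was at 0.0734 to 0.160 CPM in FaDu, at or below the level of 3 fragments, and at 1.88 to 2.42 CPM in shNSUN2 (edgeR adjusted p = 0.0007). CX3CL1, a transmembrane chemokine like CXCL16, was listed at 0 in FaDu and at 0.547, 0.219 and 0.770 CPM in shNSUN2, at least 2.67-fold higher than the mean level of 3 fragments per library in FaDu (edgeR adjusted p = 0.0120). CCL28, a mucosal ligand of CCR10, rose from 0.896 to 1.90 CPM (adjusted p = 0.0251), and CCL26, an eosinophil attractant, fell from 1.00 to 0.424 CPM (adjusted p = 0.0360). Both calls were lost when libraries were left out, with adjusted p up to 0.0998 for CCL28 (FaDu replicate 3) and 0.121 for CCL26 (FaDu replicate 2). XCL1 (2.10 and 0.909 CPM, adjusted p = 0.0695) and CCL5 (4.09 and 5.16 CPM, adjusted p = 0.235) were not called by edgeR with the main settings. XCL1 was called lower by DESeq2 (adjusted p = 0.0330), with the replicate number as a block (0.0405) and with the GC and length correction (0.0433). Of the 36 genes, 17 were at 0 in all libraries.

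Of 23 chemokine receptors, 8 were tested, 2 were lower in shNSUN2 (9.97% of all genes) and none was higher in the main edgeR test. ACKR3, the scavenging receptor of CXCL11 and CXCL12, was at 12.9, 11.7 and 13.6 CPM in FaDu and 3.31, 8.80 and 4.84 CPM in shNSUN2 (log2 fold change -1.17 with an SE of 0.33, edgeR adjusted p = 0.0426). CCR10 was at 0.220 to 0.374 CPM in FaDu and listed at 0 in shNSUN2 (edgeR adjusted p = 0.0156). The ACKR3 call was lost with any library but shNSUN2 replicate 2 left out (0.133 without shNSUN2 replicate 3), and that of CCR10 with any FaDu library left out (0.0848 without FaDu replicate 3). The list's median was -0.80, or -0.73 with CCR10 set to the level of 3 fragments. CXCR2, the receptor of the neutrophil-recruiting members, was at 0.294 to 0.855 CPM in FaDu and 0.0741 to 0.556 CPM in shNSUN2, overlapping and not called (edgeR adjusted p = 0.517). CXCR6, the receptor of CXCL16, was not called either (0.376 and 0.512 CPM, adjusted p = 0.618). CXCR4 (adjusted p = 0.121), CCR7 (0.164), ACKR4 (0.529) and CCR3 (0.778) were not called by edgeR with the main settings. CCR7 was at 0, 0 and 0.227 CPM in FaDu and 0.488, 0.572 and 0.459 CPM in shNSUN2, and was called higher without FaDu replicate 3 (adjusted p = 0.0217) and by limma voom (0.0350). CXCR3 and CCR6 were listed at 0 in all 6 libraries.

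Of the 5 genes that process chemokines at the cell surface or in solution, none was called by edgeR with the main settings. ADAM10, the sheddase of CXCL16, was at 122 ± 8.87 CPM in FaDu and 97.8 ± 23.7 CPM in shNSUN2 (SD, n = 3 each, edgeR adjusted p = 0.275). ADAM17 (67.0 and 51.7 CPM, adjusted p = 0.182) and its partners RHBDF2 (14.1 to 15.1 CPM in FaDu and 8.43 to 11.9 CPM in shNSUN2, adjusted p = 0.0561) and RHBDF1 (25.4 and 21.6 CPM, adjusted p = 0.262) were not called. RHBDF2 was called lower by DESeq2 (adjusted p = 0.0201) and limma voom (0.0470), and by edgeR with no filter (0.0486), upper-quartile scaling (0.0324), the GC and length correction (0.0101) or without shNSUN2 replicate 3 (0.0146).

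Of 26 NF-kB components tested, 4 were higher and 2 lower (median log2 fold change 0.18), a share near the 18.5% of all genes tested that were called. NFKB1, the p50 precursor, fell from 91.6 to 60.5 CPM (log2 fold change -0.60, edgeR adjusted p = 0.0102) and TRAF1, an adaptor, from 5.52 to 2.97 CPM (-0.89, 0.0156). NFKBIA, the inhibitor that retains NF-kB in the cytoplasm, rose from 90.1 to 138 CPM (log2 fold change 0.62, edgeR adjusted p = 0.0210) and TRAF2 from 71.2 to 115 CPM (0.70, 0.0224). NFKBIZ (log2 fold change 0.81, adjusted p = 0.0231) and MYD88 (0.63, 0.0499) also rose and are named here after their values were seen. No call among these 6 held with each library left out in turn. The largest adjusted p was 0.0589 for NFKB1 and 0.0984 for TRAF2 (both without FaDu replicate 2), 0.0758 for TRAF1, 0.103 for NFKBIA and 0.0930 for NFKBIZ (each without FaDu replicate 3) and 0.166 for MYD88 (without FaDu replicate 1).

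Among 20 tested NF-kB targets that are not chemokines, 6 were higher and 4 lower (median log2 fold change 0.12), against 8.54% and 9.97% of all genes tested. LCN2, a siderophore-binding protein of neutrophils and epithelium, rose from 47.5 to 164 CPM (log2 fold change 1.79, edgeR adjusted p = 0.000526), and the acute phase gene SAA2 from 0.645 to 3.33 CPM (2.36, 0.0019). IL1B fell from 164 to 46.5 CPM (log2 fold change -1.82, edgeR adjusted p = 0.000515) and PTGS2, the inducible cyclooxygenase, from 39.3 to 9.62 CPM (-2.03, 0.000596). The rest that passed were SAA1, C3, CFB and CD83 in the upward and SOD2 and IL1A in the downward direction. The calls of IL1A (adjusted p up to 0.163), C3 (0.0883), CFB (0.125) and CD83 (0.0824) were lost when FaDu replicate 3 was left out. Genes listed as targets of the same factor thus moved in both directions.

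Of 14 tested receptors and adaptors for IL-17, TNF, IL-1, Toll-like ligands and oncostatin M, 4 were lower and none was higher by edgeR (median log2 fold change -0.40), against 9.97% and 8.54% of all genes tested. OSMR, the oncostatin M receptor, fell from 197 to 101 CPM (log2 fold change -0.97, edgeR adjusted p = 0.00237). IL17RD fell from 4.23 to 1.61 CPM (-1.39, 0.0122), TLR5, the flagellin receptor, from 1.68 to 0.447 CPM (-1.91, 0.0163) and IL1RAP, a subunit of the IL-1 receptor, from 95.4 to 54.1 CPM (-0.82, 0.0265). The last 3 calls were lost when libraries were left out, with adjusted p of 0.0573 and 0.0888 for IL17RD and IL1RAP without FaDu replicate 2 and of 0.0738 for TLR5 without FaDu replicate 3.

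AP-1 and C/EBP factors act beside NF-kB at the CXCL8 promoter. By edgeR with the main settings, they gave 4 lower and no higher calls among 10 tested (median log2 fold change -0.43). Over all genes, 9.97% were lower and 18.5% called in all. Leaving out FaDu replicate 3 gave 1 higher call in this list, against 493 among the 19679 genes tested there. JUNB fell from 215 to 106 CPM (log2 fold change -1.02, edgeR adjusted p = 0.00278), JUN from 115 to 66.8 CPM (-0.79, 0.0130), FOSL1 from 226 to 102 CPM (-1.14, 0.0143) and FOS from 20.2 to 11 CPM (-0.88, 0.0468). Without FaDu replicate 3 the adjusted p was 0.0617 for JUN and 0.0604 for FOSL1, and without FaDu replicate 1 it was 0.141 for FOS.

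Interferon signalling, the pathway upstream of CXCL10 and CXCL11, had 2 genes higher and 4 lower among 25 tested (median log2 fold change 0.22), near the 8.54% higher of all genes and not far from their 18.5% called in all. IRF1, a transcription factor of this response, rose from 66.8 to 114 CPM (log2 fold change 0.77, edgeR adjusted p = 0.0153), and so did IFNLR1 (0.62, 0.0328). SOCS3, a feedback inhibitor, fell from 61.9 to 17.7 CPM (log2 fold change -1.81, edgeR adjusted p = 0.000614), STAT2 from 59.8 to 40.7 CPM (-0.55, 0.0188), STING1 from 29.9 to 20.5 CPM (-0.55, 0.0302) and JAK1 from 250.1 to 183 CPM (-0.45, 0.0360). Without single libraries only SOCS3 kept its call throughout, the adjusted p rising to 0.0756 for IRF1, 0.0924 for STAT2 and 0.134 for JAK1 without FaDu replicate 3, and to 0.128 for IFNLR1 and 0.113 for STING1 without FaDu replicate 1. IFNLR1 and JAK1 are named after their values were seen.

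Of 11 tested genes typical of the response to interferon-gamma, to which CXCL10 also belongs, 3 were higher and 1 was lower (median log2 fold change 0.13), against 8.54% and 9.97% of all genes tested. IDO1, which degrades tryptophan, was listed at 0 in FaDu and at 1.97, 1.80 and 3.27 CPM in shNSUN2, at least 12.2-fold higher than the mean level of 3 fragments per library (edgeR adjusted p = 0.0011). The guanylate-binding protein genes GBP4 (13.0 to 24.9 CPM, adjusted p = 0.00479) and GBP1 (23.0 to 40.5 CPM, adjusted p = 0.00668) rose, while WARS1, a tryptophan tRNA ligase, fell from 441 to 170 CPM (log2 fold change -1.38, edgeR adjusted p = 0.000515). HLA-DRA, another gene of this response and a leukocyte marker, was at 0 to 0.107 CPM in FaDu and 0.404 to 1.20 CPM in shNSUN2.

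Factors that bind or control AU-rich cytokine mRNAs, such as those of the CXCL1 family and CXCL8, gave 3 higher and no lower calls among 14 tested (median log2 fold change 0.13). Of all genes tested, 8.54% were higher and 9.97% lower. In either direction, the share called was near the 18.5% of all genes. HNRNPD rose from 256 to 379 CPM (log2 fold change 0.57, edgeR adjusted p = 0.00861), ELAVL1 from 101 to 148 CPM (0.55, 0.0285) and KHSRP from 239.8 to 317 CPM (0.40, 0.0411). ZFP36L2 was not called by edgeR (22.2 and 28.7 CPM, adjusted p = 0.0757) but was by DESeq2 (0.0333). KHSRP is known to promote decay and ELAVL1 to stabilise its targets. Without FaDu replicate 3 none of HNRNPD, ELAVL1 and KHSRP was called (adjusted p 0.0552, 0.124 and 0.176). The KHSRP call held in 6 of 16 settings, the main one included. It was also lost, for example, with upper-quartile scaling (0.0695), no filter (0.0706) and the GC and length correction (0.0722).

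**Figure D4:**
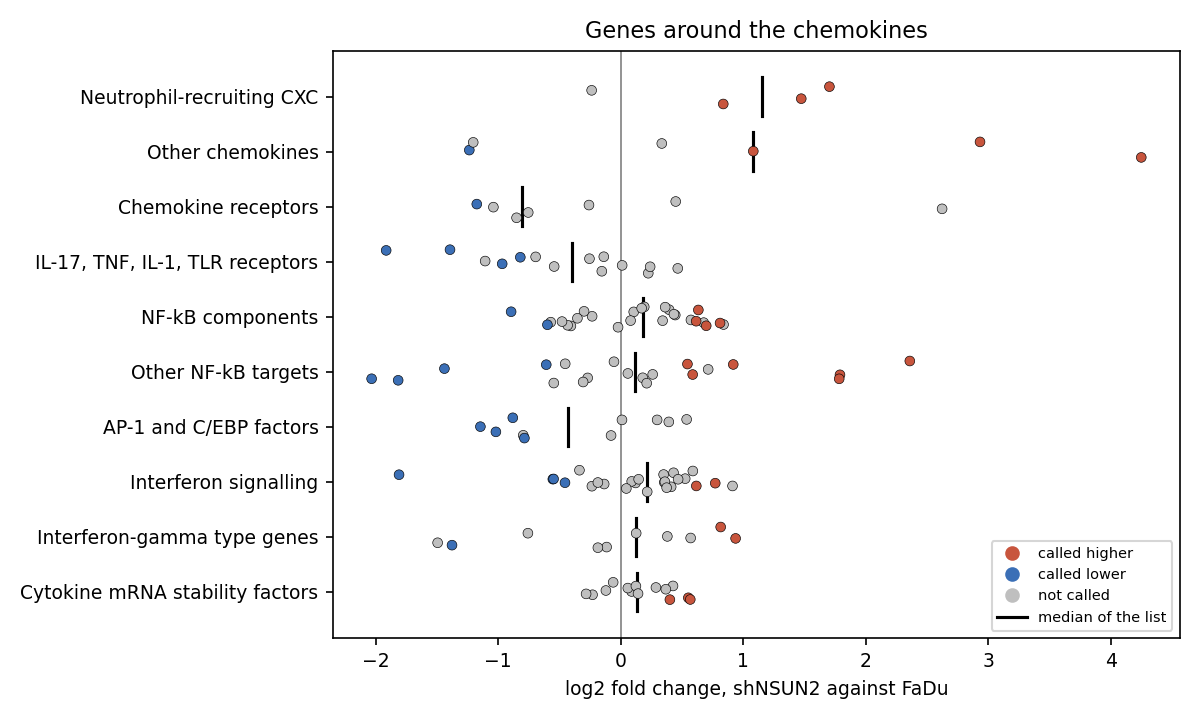
Change of every tested gene of the neutrophil-recruiting group and of 9 lists around it, as log2 fold change of shNSUN2 against FaDu. Points are genes, coloured by call, and black bars are list medians. CX3CL1, CCR10 and IDO1, listed at 0 in 1 group, lie outside the plotted range of 5 on either side. The medians of the neutrophil-recruiting members and of the other chemokines lie above 1, and those of the remaining lists between -0.80 and 0.22.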

How the data were processed

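RNA sequencing of 6 FaDu libraries was deposited by the authors as 1 table of whole-number expected counts per Ensembl gene, used as they stand. Bowtie 0.12.2, HISAT2 2.0 and StringTie 1.3.0 are named in the submitters' processing notes, beside a mouse build that does not go with the human identifiers. The human build, annotation and strand setting are not given in any source used here. Symbols came from a gene name table and GENCODE 29 (58817 identifiers matched), whose GRCh38 positions are printed. Because 1 fragment is often worth 4 counts, no Poisson or binomial interval is given.

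Groups were compared with edgeR 4.0.16 (R 4.3.3) quasi-likelihood tests, robust, two-sided, group alone, TMM, filterByExpr (minimum count 10, minimum total 15). This kept 19081 genes. Alternatives were no filter, other scalings, DESeq2 1.42.0, limma 3.58.1 voom, counts divided by 4, a replicate block, a correction for GC content and length, and each library left out. The members and gene lists were chosen with earlier results of these data known. Named genes were NSUN2, the members, all tested chemokines and receptors, the 4 genes of smallest adjusted p in each other list, and the 3 nearest in pattern to CXCL8; the same was planned for CXCL10, which was not tested. Marker genes were named where their list was checked.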

Additional observations from a re-analysis of the deposited data

How the results depend on the processing

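CXCL8 and CXCL1 were called under all 15 alternatives, with log2 fold changes of 1.40 to 1.55 and 1.58 to 1.79, and CXCL2 under none. With 1 library left out, the ranges were 0.72 to 1.06 for CXCL3, 0.60 to 0.80 for CXCL16 and 0.58 to 0.98 for CCL20. The log2 fold change of CXCL3 was 0.81 with no filter, 0.76 with upper-quartile scaling and 0.72 with the GC and length correction. With no filter, 1 interferon-induced member, CXCL10, was called. CCL20, not called in the main test, was called at 0.83 by DESeq2 and 0.81 with the GC and length correction. Leaving out 1 library gave 2 to 5 members higher, 0 to 1 interferon-induced members higher, 478 to 2090 genes higher and 861 to 2181 lower in all, and 11 to 25 pathway genes higher and 9 to 24 lower (22 and 22 with all libraries). Of the 34 named pathway genes called, all kept their sign and 14 their call in every setting. Calls kept were 18, 18 and 16 without FaDu replicates 1, 2 and 3 and 22, 33 and 31 without shNSUN2 replicates 1, 2 and 3. Leaving out 1 library, CXCR6 ranged from -0.0427 to 0.789 (reversed without shNSUN2 replicate 1) and CCR3 from -0.508 to 0.000287 (reversed without FaDu replicate 2), neither being called. Upper-quartile scaling made 36.2% of calls higher, against 46.1%. The cause of these differences between settings was not tested.

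The series' design text mentions 3 pairs of experiments but not what a pair shares. Same-numbered libraries did not deviate together (correlations of -0.11, 0.0347 and -0.0381 over 11104 genes), so the data give no sign that the numbers pair them. With the replicate number as a block, 969 genes in all (against 1629) and 14 pathway genes were higher, 26 of the 34 named calls were kept (CCL26, CCL28, CCR10, ELAVL1, FOS, KHSRP, NFKBIA and STING1 were lost), and the log2 fold change of CXCL3 was 0.86 (adjusted p = 0.0869). With the block and the GC and length correction, it was 0.74 for CXCL3 (adjusted p = 0.105), 0.53 for CXCL16 (0.0968) and 0.80 for CCL20 (0.0448, called). DESeq2 called 2352 genes higher and 2471 lower.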
